A study of Rattus norvegicus with 21 samples.

Results

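Cytosolic ribosomal proteins were followed at the mRNA level in rat liver after gavage with an aryl phosphate ester, tert-butylphenyl diphenyl phosphate (BPDP). The members are all genes with a probe set that names them alone and whose symbol starts with Rpl or Rps and a digit, or is Rpsa, Rplp0, Rplp1 or Rplp2, with the S6 kinase genes left out. The rule found 57 probe sets for 50 genes, of 14217 genes measured in this way. It used symbols and no measured value.

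Male Harlan Sprague Dawley rats received BPDP in corn oil by oral gavage, once a day for 4 days, and the left liver lobe was taken on day 5. The dosed groups had 3 arrays each, at 64.6 mg/kg (0.169 mmol/kg), 129.2 mg/kg (0.338 mmol/kg), 258.1 mg/kg (0.675 mmol/kg), 516.2 mg/kg (1.35 mmol/kg) or 1032.5 mg/kg (2.7 mmol/kg), and the vehicle group, which received corn oil alone, had 6. The labels' protocol gives 5 vehicle rats, so the source of the sixth vehicle array is not given in the sources used here, and neither are the ages of the rats. Every group shared the strain, sex, vehicle and route, and no untreated group without gavage was analysed here. Values are log2 signals of an Affymetrix rat array. They rank 1 gene across arrays and do not rank genes against each other.

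The arrays correlated pairwise between 0.984 and 0.995, no pair was identical, and array medians lay between 6.3 and 6.4. In liver, hepatocyte markers (albumin, transthyretin and others, 6 measured) averaged 14.22 to 14.34 on the vehicle arrays and 14.2 to 14.27 at 1032.5 mg/kg, and none of them was called at any dose. Of the markers of other cells, 3 red cell markers averaged 8.64 to 9.65 in vehicle and 7.46 to 8.19 at 1032.5 mg/kg, 4 Kupffer cell markers 9.95 to 10.5 and 9.52 to 9.87, 6 lymphocyte markers 5.99 to 6.37 and 5.72 to 5.87, and 6 stellate cell markers 8.01 to 8.4 and 7.69 to 7.81. At that dose 2 of 3, 1 of 4, 2 of 6 and 2 of 6 of these markers were lower past the threshold. Averages were 5.79 to 8.49 and 5.34 to 5.8 for 3 neutrophil markers, 9.16 to 10.02 and 9.3 to 9.5 for 4 endothelial markers, and 6.73 to 7.26 and 6.96 to 7.23 for 3 cholangiocyte markers, with 0, 0 and 1 (higher) past it. At 516.2 mg/kg 4 of 6 stellate cell markers (averages 7.25 to 7.81, median difference -0.66), 1 of 4 endothelial (8.99 to 9.53, -0.33) and 1 of 6 lymphocyte markers (5.77 to 5.99, -0.37) were lower past it, and 1 of 3 cholangiocyte markers was higher. The part of other cells in the values below was not tested, and in bulk tissue fewer cells of a type cannot be told apart from less RNA per cell.

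A cytosolic ribosome is built from a large and a small subunit, each made of ribosomal RNA and a set of proteins needed in equal amounts. In liver, which exports much of the plasma's protein, their mRNAs are among the most abundant of the cell. Their transcripts typically start at a cytosine within a run of pyrimidines, the terminal oligopyrimidine tract, through which the growth-regulating kinase mTOR controls how well they are translated rather than how many there are.

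That start is shown here for 5 members chosen from those that have such a run. It is a sequence feature known for the family, and the rule did not use it. Each line gives 15 bases before and 15 bases from the annotated start in RefSeq (GRCr8), read 5′ to 3′ on the gene's strand. The capitals mark the run of C and T counted from a C at the start, whether or not C or T precede it.
Rpl19: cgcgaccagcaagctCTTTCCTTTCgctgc
Rpl22: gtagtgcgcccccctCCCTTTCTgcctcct
Rps15: cgctgacaccgcttcCTTTTCCCagcagcc
Rpl35a: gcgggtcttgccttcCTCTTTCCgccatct
Rplp0: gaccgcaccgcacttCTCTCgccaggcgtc
Rpl3l: gacctctggtgcctggtggggaggtccctt
Rpl7l1: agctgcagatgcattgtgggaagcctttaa
The last pair, paralogues rather than standard subunits of the liver ribosome, had no such run at the annotated start. Many standard subunits had none there either. Of 32 members with a mean log2 signal above 12, 9 had it, so the lines show no rule for standard subunits. The windows lie at chr10:83519049-83519078 (plus strand) for Rpl19, chr5:168117946-168117975 (plus) for Rpl22, chr7:10068101-10068130 (minus) for Rps15 and chr11:81235007-81235036 (minus) for Rpl35a. Those of Rplp0, Rpl3l and Rpl7l1 lie at chr12:46718376-46718405 (minus), chr10:14258431-14258460 (plus) and chr9:21695703-21695732 (plus).

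Runs were counted on the gene's strand from a C at the annotated start, whatever preceded it. Of the 41 members with an entry in the RefSeq promoter table, 11 had such a run of at least 5 C or T letters, or 26.8%. So did 2 of 59 nuclear genes of the mitochondrial ribosome, or 3.39%, and 722 of 27457 promoters in the table, or 2.63%. With the run allowed to begin up to 3 bases from the start the share was 41.5% of members against 11.1% of all promoters, and with up to 10 bases 65.9% against 28.8%. Members without a match include Rps6 and Rpl3, and a missing match says only that these letters are not in this window of the annotation.

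The members fell into a bright and a dim class on the array. In the bright class, 38 members had a mean log2 signal above 12 over the 21 arrays, between 12.26 and 14.35. They comprise 25 large-subunit genes, 12 small-subunit genes and Rplp0, the scaffold of the ribosomal stalk. The other 12 members averaged 3.24 to 9.89 and include all 8 paralogues or pseudogenes by name (Rpl26l1, Rpl37-ps2, Rpl39l1, Rpl3l, Rpl7l1, Rps27l, Rps4x-ps1 and Rps4y2) together with Rpl28, Rpl30, Rpl39 and Rps13. Rpl28, Rpl30, Rpl39l1 and Rps4x-ps1 averaged less than the arrays' lower quartile, which was 4.95 to 5.1.

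The mRNA signals of the ribosomal proteins showed no change from vehicle that passed the test at any dose. With limma and Benjamini-Hochberg adjustment over all probe sets, 0 of 50 members were higher and 0 were lower than vehicle at 64.6, 129.2, 258.1, 516.2 and 1032.5 mg/kg. The share of all genes past the same threshold (adjusted p under 0.05) in the higher and the lower direction was 0.197% and 0.19% at the lowest dose, then 0.352% and 0.169%, 2.23% and 1.33%, 6.3% and 2.64%, and 4.81% and 4.14% at the highest. In either direction it was 0.387%, 0.521%, 3.56%, 8.93% and 8.95% at these doses. Among the 479 other genes with a mean above 12 it was 1.25%, 2.51%, 10.9%, 15.4% and 24.8%. At an unadjusted p under 0.05 there were 2, 0, 1, 5 and 5 members, that is at most 5 of 50, beside 9.32%, 9.11%, 16.6%, 27% and 23.3% of all genes. The smallest adjusted p of any member was 0.459, 0.751, 0.209, 0.101 and 0.134 in limma.

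**Figure D1:**
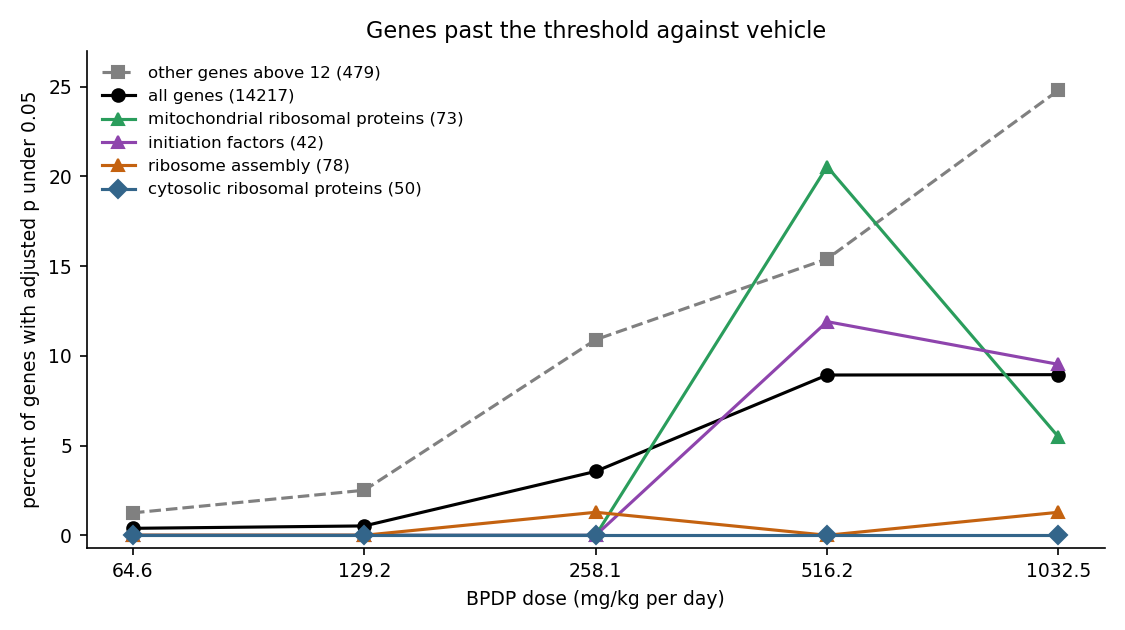
Share of genes with an adjusted p under 0.05 against vehicle (percent, y axis) at each BPDP dose (mg/kg per day, x axis) for cytosolic ribosomal proteins, other lists and all genes, with the number of genes in brackets. The cytosolic ribosomal proteins sit at 0 at every dose, while all genes reach 8.95% and other genes above 12 reach 24.8% at 1032.5 mg/kg.

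The precision of these values bounds the size of change in array signal that could have been missed. Each interval holds for 1 gene at 1 dose on the deposited scale, and how closely signal follows mRNA amount was not tested. For the 38 bright members the standard error of a dose difference was 0.06 to 0.11, with a median of 0.09 on the log2 scale. At every dose the 95% interval of each of the 38 lay within 1.5-fold of vehicle in both directions. Within 1.2-fold lay 19, 26, 28, 16 and 17 of them from the lowest dose to the highest. The widest bounds were -0.49, for Rpl13a at 1032.5 mg/kg, and 0.45, for Rpl23a at 516.2 mg/kg. Over all 50 members, 47, 49, 49, 49 and 47 intervals lay within 1.5-fold.

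**Figure D2:**
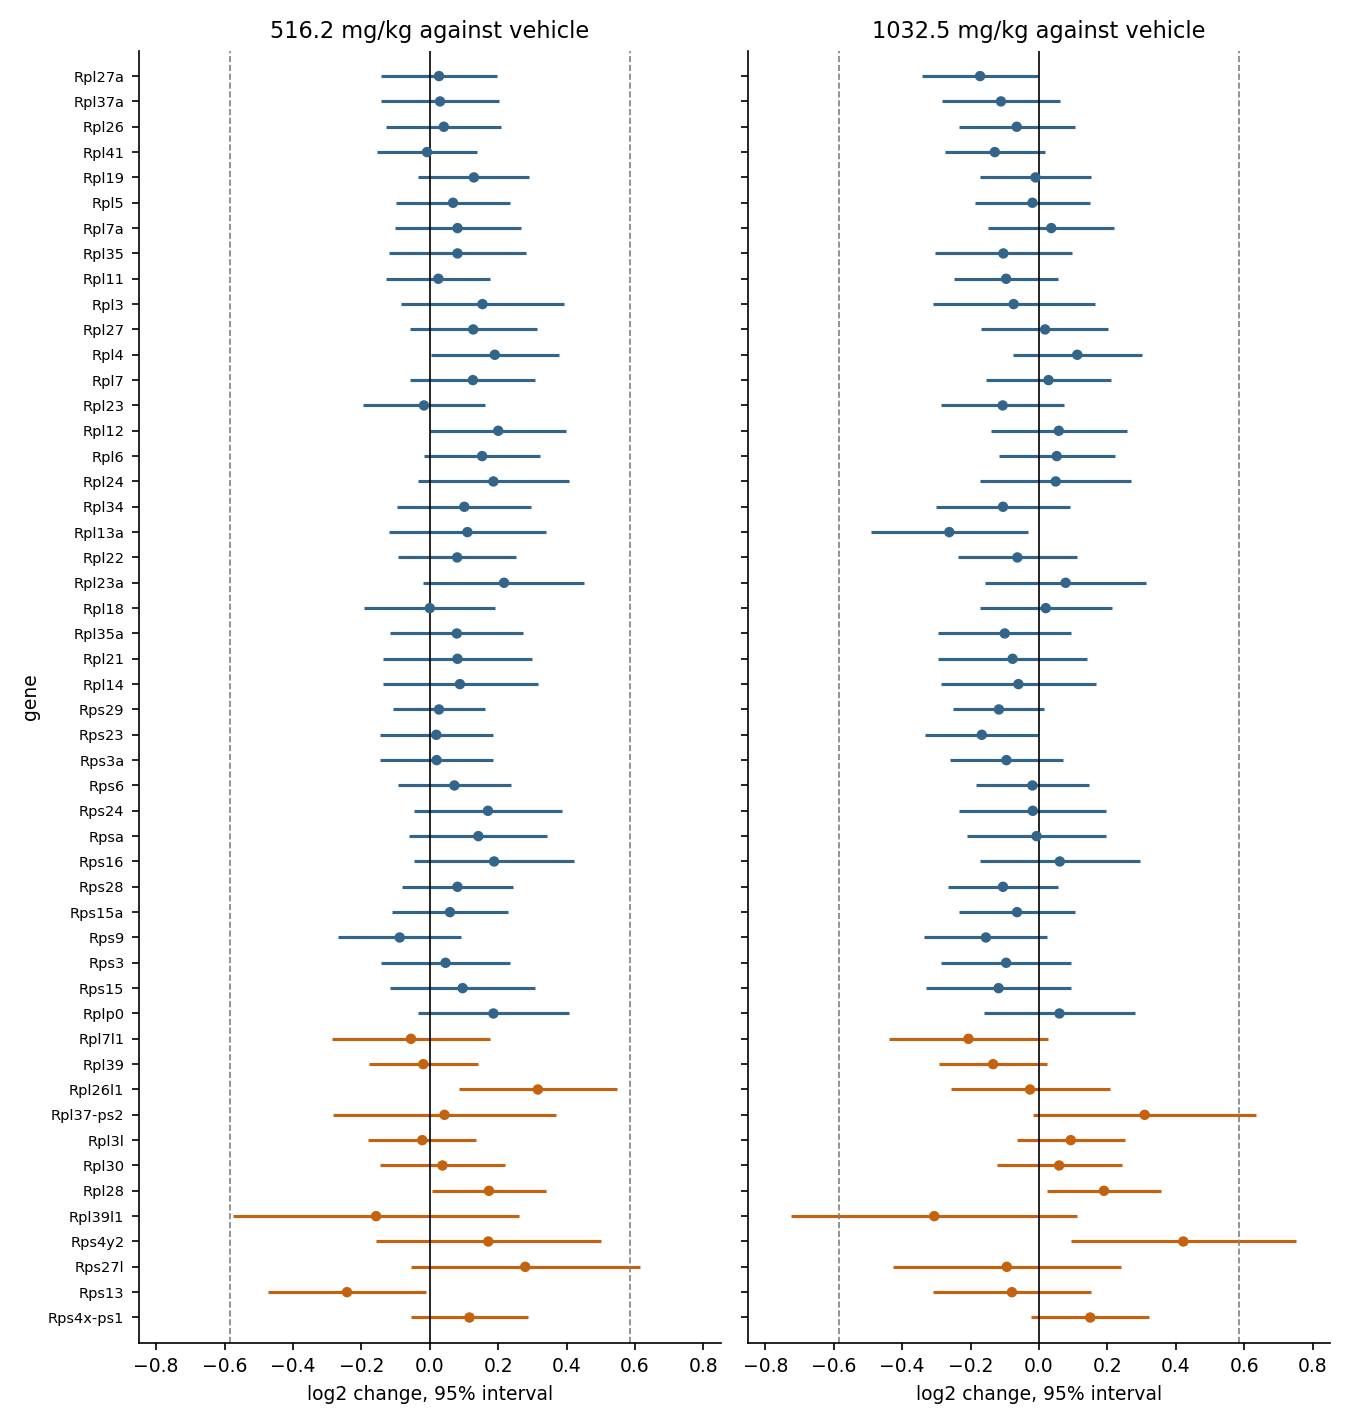
Change in log2 signal against vehicle (x axis) with its 95% interval for each of the 50 members (y axis) at 516.2 and 1032.5 mg/kg, bright members in blue and the others in orange, dashed lines at 1.5-fold. All blue intervals lie between the dashed lines in both panels, and those of Rps4y2, Rpl37-ps2 and Rpl39l1 cross a dashed line at 1032.5 mg/kg.

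The bright members moved by small amounts and together. Their median difference from vehicle was -0.08, -0.05, -0.04, 0.08 and -0.06 at the 5 doses, where the median over all genes was 0.0, -0.01, 0.01, 0.0 and -0.01. All 38 differences were below 0 at 64.6 mg/kg, and 29, 30, 4 and 27 of them were at the next doses, while 48.7% to 53.3% of all genes were below 0. At 64.6, 129.2 and 1032.5 mg/kg the size of these shifts depended on single arrays, as did their sign at 129.2 and 1032.5 mg/kg. The difference of the mean over all 50 members was -0.07 at 64.6 mg/kg, and -0.16, -0.05 and -0.01 without array 1, 2 or 3 of that dose. At 129.2 mg/kg it was -0.04, and -0.07, -0.06 and 0.02 without array 1, 2 or 3. At 1032.5 mg/kg it was -0.03, and -0.10, 0.01 and -0.01 without array 1, 2 or 3. At 258.1 mg/kg it was -0.03, and -0.05 to -0.01 with each array left out. At 516.2 mg/kg it was 0.08, and 0.06 to 0.11 with each array left out. The members' differences ranged from -0.15 to 0.0 at 64.6 mg/kg, from -0.09 to 0.22 at 516.2 mg/kg and from -0.26 to 0.11 at 1032.5 mg/kg. The 5 comparisons share the vehicle arrays, so their values are not independent of each other.

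The shared direction is also seen between arrays of the same group. The mean log2 signal of the 38 bright members on the vehicle arrays had a lowest value of 13.16, a median of 13.27 and a highest of 13.40. It was 13.40, 13.14 and 13.04 at 64.6 mg/kg, 13.28, 13.29 and 13.10 at 129.2 mg/kg, and 13.22, 13.23 and 13.24 at 258.1 mg/kg. It was 13.40, 13.31 and 13.36 at 516.2 mg/kg and 13.36, 13.12 and 13.16 at 1032.5 mg/kg. The highest and the lowest array of the whole series thus belonged to the same dose, 64.6 mg/kg, 0.37 apart, and every dosed group overlapped the vehicle range.

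Group means were 13.27 ± 0.08 in vehicle (SD, n = 6), and 13.19 ± 0.19, 13.22 ± 0.11, 13.23 ± 0.01, 13.36 ± 0.05 and 13.22 ± 0.13 at the rising doses (SD, n = 3 each). The means spanned 0.16, less than the 0.37 between arrays at 64.6 mg/kg alone. Differences between the 6 groups held 24.0% of the variance of this mean, and 11.9% to 45.7% of that of single bright members, with a median of 25%. A share of about 25% is what 6 groups of 21 arrays hold on average when dose has no effect. A single axis held 76.0% of the variance of the 38 members over the arrays, and 78.8% of their variance within groups. Within groups the SD of a bright member was 0.06 to 0.17, with a median of 0.12, against 0.11 for other genes above 12 and 0.15 for all genes.

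**Figure D3:**
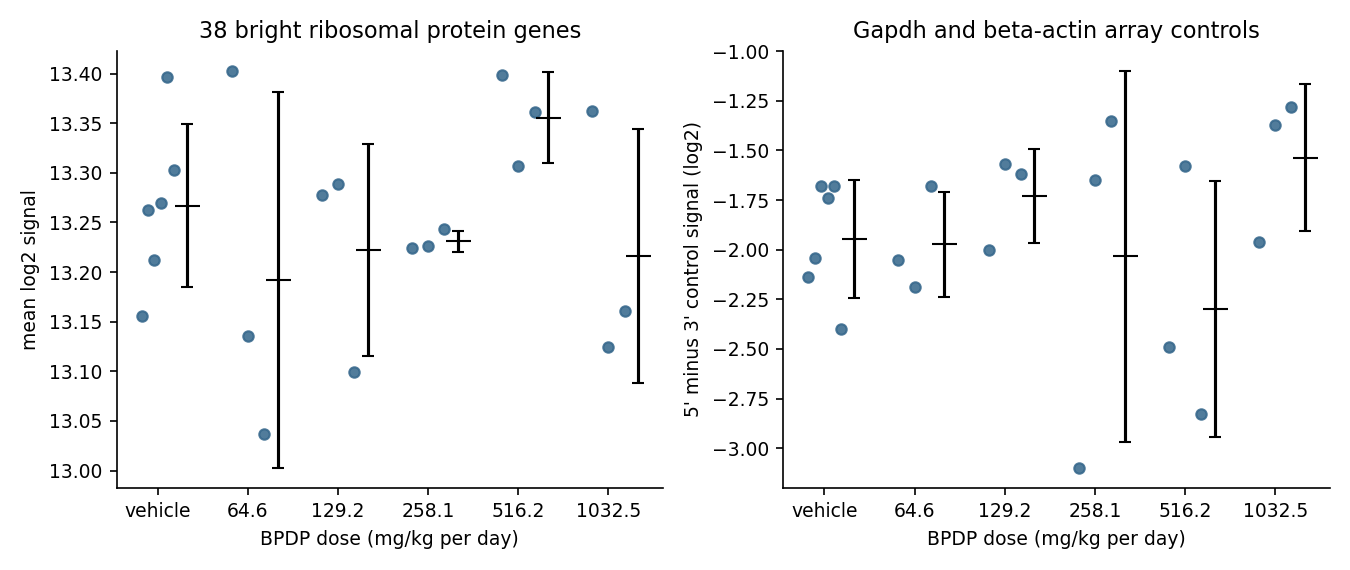
Left, mean log2 signal of the 38 bright members on each array by BPDP dose; right, log2 signal of the 5′ minus the 3′ control probe sets of Gapdh and beta-actin on the same arrays. Points are arrays and bars the mean ± SD; at 64.6 mg/kg the left panel runs from 13.04 to 13.40, as wide as the series.

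The count of members above their own vehicle mean was also taken over all 50 genes, most of which are the 38 bright ones. On the vehicle arrays it ran from 6 to 45 of 50. It was 44, 5 and 4 at 64.6 mg/kg, 24, 29 and 5 at 129.2 mg/kg, 17, 11 and 20 at 258.1 mg/kg, 42, 28 and 40 at 516.2 mg/kg, and 37, 9 and 12 at 1032.5 mg/kg. Among the 38 bright members alone it was 37, 1 and 0 at 64.6 mg/kg, and 30, 3 and 5 at 1032.5 mg/kg. Bright members therefore went up or down as a block on single arrays within a group. The dim members followed that block less closely. The signal of the 5′ control probe sets of Gapdh and beta-actin minus that of the 3′ ones, a measure of RNA and labelling quality, averaged -1.95 ± 0.29 in vehicle (SD, n = 6), -2.30 ± 0.64 at 516.2 mg/kg and -1.54 ± 0.37 at 1032.5 mg/kg (SD, n = 3 each). This 5′ minus 3′ difference averaged -1.97 ± 0.26, -1.73 ± 0.24 and -2.03 ± 0.93 at 64.6, 129.2 and 258.1 mg/kg (SD, n = 3 each). The lowest array of the series, array 1 at 258.1 mg/kg, read -3.1. With that difference as a covariate in the limma fit, 33 of 38 bright members were above 0 at 516.2 mg/kg and the median was 0.06.

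**Figure D4:**
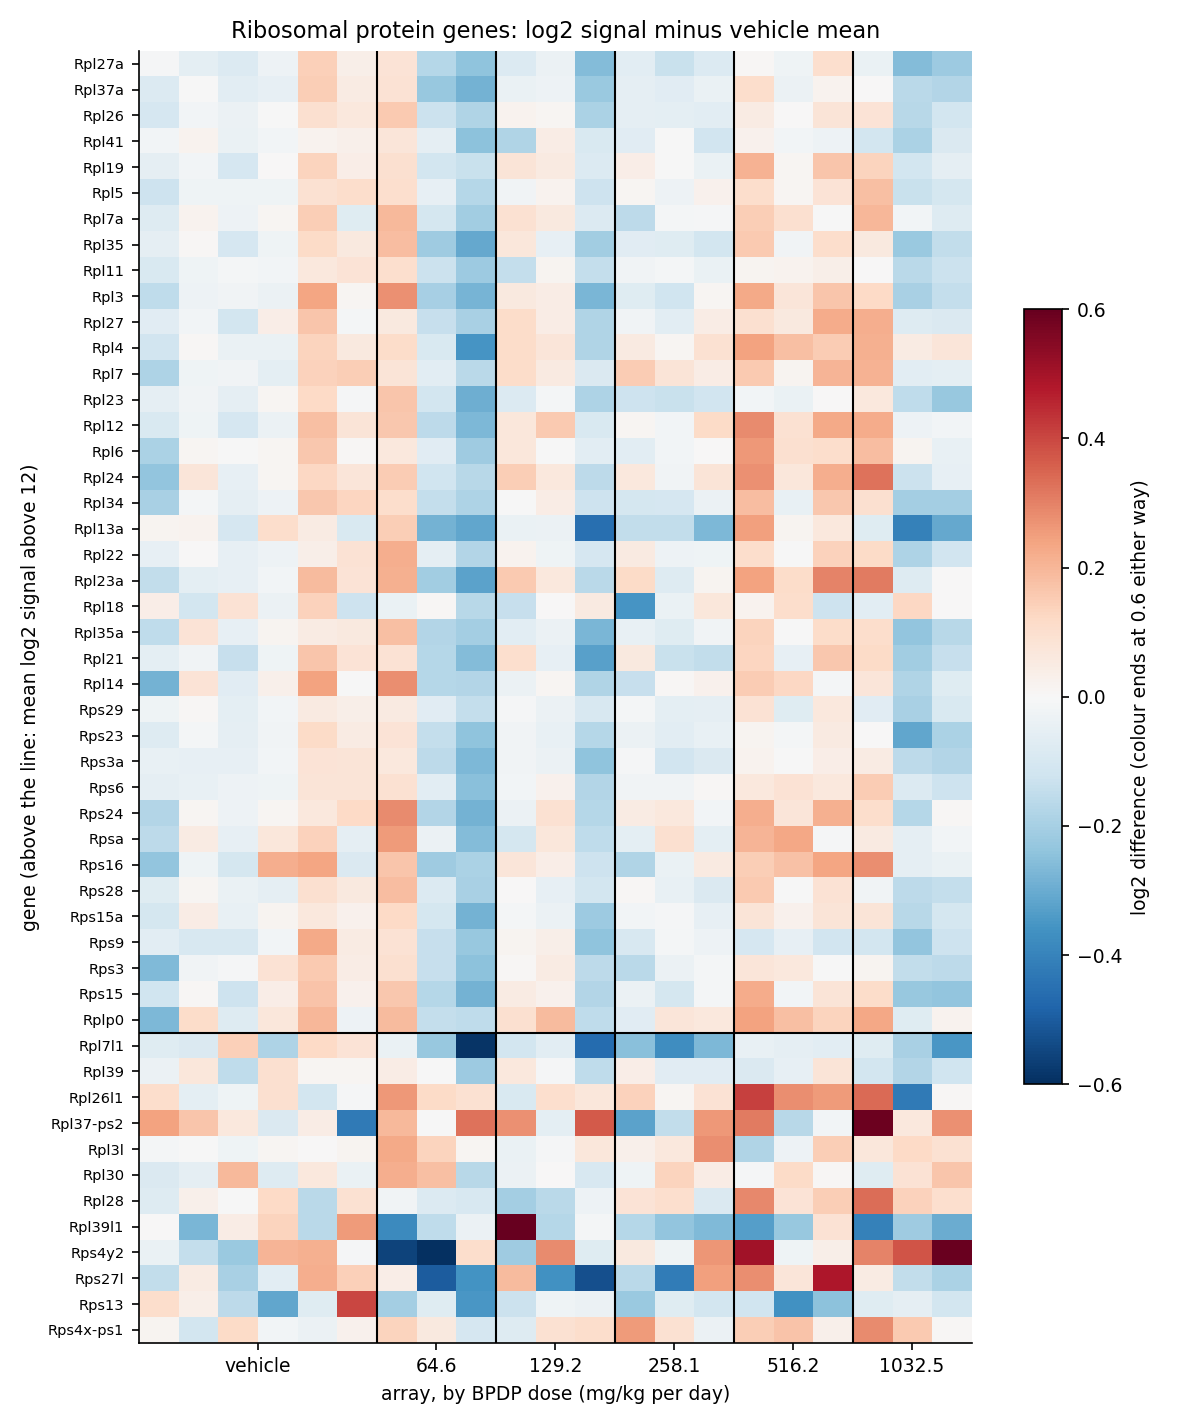
Log2 signal minus the gene's vehicle mean for each of the 50 members (rows) on each of the 21 arrays (columns, by BPDP dose in mg/kg per day), red above and blue below, with the colour scale ending at 0.6 either way. Columns are mostly of a single colour above the line that separates the 38 bright members, and arrays of the same group differ, as at 64.6 mg/kg.

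Of the large-subunit proteins, Rpl5 and Rpl11 bind the small 5S ribosomal RNA and, when free of the ribosome, inhibit Mdm2, the ligase that degrades p53. Rpl5 had a lowest, median and highest log2 signal of 13.37, 13.46 and 13.59 in vehicle, and 13.67, 13.35 and 13.38 at 1032.5 mg/kg. Rpl11 had 13.31, 13.39 and 13.48 in vehicle, and 13.41, 13.24 and 13.27 at 1032.5 mg/kg. Both overlapped vehicle at every dose, with differences at 1032.5 mg/kg of -0.02 for Rpl5 (95% interval -0.19 to 0.15, adjusted p = 0.946 in limma) and -0.10 for Rpl11 (-0.25 to 0.06, adjusted p = 0.562).

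Rpl3, which lies near the site where peptide bonds form, shows the spread at the lowest dose. Its log2 signal was 13.21, 13.34 and 13.60 in vehicle (lowest, median and highest), and 13.64, 13.17 and 13.09 at 64.6 mg/kg. The first of these arrays lay above all vehicle arrays and the others below all of them. The mean difference there was -0.07 (95% interval -0.30 to 0.17, adjusted p = 0.942 in limma).

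Rpl13a, a surface protein of the large subunit that also takes part in silencing certain mRNAs after interferon gamma, had the lowest difference of the bright members at 1032.5 mg/kg. In vehicle its log2 signal was 12.93, 13.05 and 13.13 (lowest, median and highest). It was 12.88, 12.88 and 12.76 at 258.1 mg/kg, all below every vehicle array, then 13.28, 13.05 and 13.09 at 516.2 mg/kg, and 12.96, 12.62 and 12.72 at 1032.5 mg/kg. The difference at 1032.5 mg/kg was -0.26 (95% interval -0.49 to -0.03, adjusted p = 0.197 in limma), with 2 of 3 arrays below all vehicle arrays. With arrays weighted by their agreement with the fit it passed the test there (-0.33, adjusted p = 0.0299).

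Rpl4, whose loop lines the tunnel for the nascent chain, was the bright member whose 3 arrays at 516.2 mg/kg all lay above vehicle. It read 13.15, 13.25 and 13.39 in vehicle (lowest, median and highest) and 13.50, 13.44 and 13.41 at 516.2 mg/kg (difference 0.19, adjusted p = 0.232 in limma). Rpl41, a very small basic protein, and the small-subunit members Rps9 and Rps29 had all 3 arrays at 1032.5 mg/kg below vehicle. Rpl41 read 13.79, 13.83 and 13.86 in vehicle and 13.72, 13.64 and 13.74 at 1032.5 mg/kg (difference -0.13, adjusted p = 0.364 in limma). These genes apart from Rpl41 were singled out after their values were seen.

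Full separation from vehicle was seen for 0 to 3 of the 50 members in each direction and dose. The members' share was above that of all genes for lower values at 258.1 mg/kg, and below it in every other case. These counts were not tested against the shares of all genes, so they do not show that members separated less often. All 3 arrays lay above all 6 vehicle arrays for 0, 0, 1, 2 and 2 members at the rising doses, where the share of all genes was 3.23%, 3.03%, 5.66%, 8.97% and 6.89%. All 3 lay below for 0, 0, 3, 0 and 3 members, where it was 2.2%, 2%, 3.52%, 5.25% and 7.08%. Besides the genes above, these were Rpl23 and Rpl7l1 (lower) and Rpl3l (higher) at 258.1 mg/kg, Rpl26l1 (higher) at 516.2 mg/kg, and Rpl3l and Rps4y2 (higher) at 1032.5 mg/kg.

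Of the small-subunit proteins, Rps6 is the substrate of the S6 kinases and Rps3 lines the channel by which mRNA enters. Rps6 read 13.39, 13.42 and 13.52 in vehicle (lowest, median and highest) and 13.59, 13.36 and 13.32 at 1032.5 mg/kg. Its difference there was -0.02 (95% interval -0.18 to 0.15, adjusted p = 0.946 in limma). Rps3 read 12.65, 12.94 and 13.07 in vehicle and 12.93, 12.77 and 12.76 at 1032.5 mg/kg, all within the vehicle range (difference -0.10, adjusted p = 0.667 in limma).

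Rpsa, a small-subunit protein also known as the laminin receptor, and Rplp0, which holds the stalk that recruits elongation factors, overlapped vehicle at every dose as well. Rpsa read 13.04, 13.20 and 13.34 in vehicle (lowest, median and highest), and 13.26, 13.15 and 13.18 at 1032.5 mg/kg (difference -0.01, 95% interval -0.21 to 0.20, adjusted p = 0.986 in limma). The 3 probe sets of Rpsa differed from vehicle by -0.01, -0.16 and -0.14 at that dose. Rplp0 read 13.16, 13.45 and 13.63 in vehicle and 13.66, 13.36 and 13.45 at 1032.5 mg/kg (difference 0.06, 95% interval -0.16 to 0.28, adjusted p = 0.848 in limma).

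Rpl22, an RNA-binding protein that lymphocyte development depends on, had a difference of -0.06 at 1032.5 mg/kg (adjusted p = 0.78 in limma), with arrays at 13.04, 12.74 and 12.81 against 12.88 to 13.02 in vehicle. Rpl39, a small protein of the exit tunnel, read 7.04 to 7.29 in vehicle and 7.09, 7.02 and 7.08 at 1032.5 mg/kg (difference -0.13, adjusted p = 0.389 in limma). Large- and small-subunit members had like medians at each dose. These were -0.07 and -0.09 at 64.6 mg/kg, 0.08 and 0.08 at 516.2 mg/kg, and -0.06 and -0.09 at 1032.5 mg/kg.

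The paralogues held the widest differences. All of them are dim and were measured less precisely. The median standard error of a dose difference was 0.13 for paralogues and pseudogenes, against 0.09 for bright members. Rps4y2, a gene of the family of the small-subunit protein S4, read 8.16, 8.36 and 8.59 in vehicle (lowest, median and highest). At the rising doses its arrays read 7.83, 7.73 and 8.48, then 8.17, 8.67 and 8.31, then 8.44, 8.36 and 8.65, then 8.88, 8.36 and 8.41, then 8.68, 8.76 and 8.97. At 1032.5 mg/kg all arrays lay above all vehicle arrays, and at 64.6 mg/kg 2 of 3 lay below them. The differences were 0.42 at 1032.5 mg/kg (95% interval 0.09 to 0.75, adjusted p = 0.134 in limma) and -0.37 at 64.6 mg/kg (adjusted p = 0.54).

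Rps4y2 was also the member with the smallest adjusted p in a slope over the dose step. Over all 6 groups the slope was 0.09 per step (adjusted p = 0.0592 in limma), and 0 of 50 members passed where 15% of all genes did, with 4 members at an unadjusted p under 0.05. Over the 15 dosed arrays alone its slope was 0.18 per step (adjusted p = 0.0302), the sole member to pass where 3.41% of all genes did. That call was lost without array 1 or 2 at 64.6 mg/kg (adjusted p = 0.0891 and 0.102 in limma) and without array 2 or 3 at 1032.5 mg/kg (0.0567 and 0.0768). Its probe set may bind mRNA of other S4 genes, which was not tested.

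Rps27l, a paralogue of Rps27 known as a p53 target, read 8.15, 8.33 and 8.56 in vehicle (lowest, median and highest). It read 8.38, 7.84 and 7.99 at 64.6 mg/kg, 8.62, 8.42 and 8.83 at 516.2 mg/kg, and 8.39, 8.20 and 8.15 at 1032.5 mg/kg. The groups overlapped, and the difference at 1032.5 mg/kg was -0.09 (95% interval -0.43 to 0.24, adjusted p = 0.84 in limma). Rpl7l1, a relative of Rpl7 linked to ribosome assembly, read 9.79, 9.66 and 9.76 at 258.1 mg/kg, all below the vehicle range of 9.85 to 10.18 (difference -0.30, adjusted p = 0.209 in limma). A second probe set of that gene differed by -0.10 at the same dose.

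Rpl3l, the form of Rpl3 found in heart and skeletal muscle, read 5.02 to 5.06 in vehicle and 5.11, 5.16 and 5.14 at 1032.5 mg/kg (difference 0.09, adjusted p = 0.598 in limma). The whole vehicle range of this dim gene was narrow, so small differences separate the groups. Rpl26l1, a close relative of Rpl26, had the smallest adjusted p of the members at 516.2 mg/kg. It read 6.61, 6.70 and 6.82 in vehicle (lowest, median and highest) and 7.13, 7.0 and 6.97 at that dose, all above vehicle (difference 0.32, 95% interval 0.08 to 0.55, adjusted p = 0.101 in limma), and 7.06, 6.29 and 6.72 at 1032.5 mg/kg.

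Other contrasts gave the same counts. The moderated F test over the 5 doses passed 0 of 50 members where it passed 6.71% of all genes, with 2 members at an unadjusted p under 0.05 and a smallest adjusted p of 0.125, for Rps4y2. Between successive doses limma passed 0 members and 0 of all genes, with 1, 1, 2 and 3 members at an unadjusted p under 0.05. The median difference of the 50 members was 0.12 from 258.1 to 516.2 mg/kg, with 46 above 0, and -0.13 from 516.2 to 1032.5 mg/kg, with 42 below 0. These contrasts share the 516.2 mg/kg arrays, which carried the highest group mean.

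Probe sets that name several genes with a ribosomal protein among them were tested as well. Among 36 such probe sets, 33 of them above 12, 0 were past the threshold at each dose in limma, and 0, 0, 1, 3 and 2 had an unadjusted p under 0.05. Their median difference was -0.08, -0.05, -0.03, 0.09 and -0.06 at the rising doses. Rplp1, Rplp2, Rps14, Rps19, Rps27, Rps27a, Rpl10 and Rpl22l1 have no probe set naming them alone and were not analysed here as single genes. Of 6 members with several probe sets (Rpl14, Rpl3, Rpl7, Rpl7l1, Rps24 and Rpsa), none had a probe set past the threshold at any dose.

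The rest of the protein synthesis machinery was set beside the members as 5 lists. Of 73 nuclear genes for the mitochondrial ribosome, 15 rose and 0 fell at 516.2 mg/kg, and 4 rose and 0 fell at 1032.5 mg/kg, where 6.3% and 4.81% of all genes rose. At the latter dose that share is near the background. None was called at the 3 lower doses, with 1, 3 and 15 at an unadjusted p under 0.05 in limma. The count at 258.1 mg/kg was 2 without array 2 of that dose and 1 without vehicle array 5 or 6. Their median difference was 0.21 at 516.2 mg/kg, where that of the cytosolic members was 0.08, and this gap was not tested. The count of 15 rests on few arrays: it was 3 without array 1 and 2 without array 3 at 516.2 mg/kg, and 8, 9, 6 and 8 without vehicle array 1, 2, 3 or 4. The count of 4 was 2 without array 2 at 1032.5 mg/kg. Mrpl30 rose by 0.59 ± 0.12 (SE; adjusted p = 0.00497 in limma) and Mrps9 by 0.52 ± 0.11 (adjusted p = 0.00413) at 1032.5 mg/kg.

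In the other lists, some genes were called at the higher doses. Of all genes, 2.23%, 6.3% and 4.81% rose at 258.1, 516.2 and 1032.5 mg/kg, and 1.33%, 2.64% and 4.14% fell. The lists' counts were not tested against these shares. Of 42 initiation factors, 5 rose at 516.2 mg/kg, and 2 rose and 2 fell at 1032.5 mg/kg, where 8.93% and 8.95% of all genes were called in either direction. The count of 5 was 2 with the RNA integrity covariate, 3 with cyclic loess and 8 with array medians subtracted or array weights. The count of 5 was 1 or 2 without vehicle array 1, 3 or 4, or without array 1 or 3 at 516.2 mg/kg. At 1032.5 mg/kg the rises were 1 without vehicle array 1 or 4, or array 1 or 2 of that dose, and 4 without vehicle array 6. The falls were 0 or 1 without any single array of that dose or without vehicle array 1, 2, 3, 5 or 6. Eif2b2, a subunit of the exchange factor that reloads eIF2, rose by 0.71 ± 0.12 at 1032.5 mg/kg (SE; adjusted p = 0.000665 in limma). The 2 that fell there were Eif2b4, another subunit of that factor (-0.38, adjusted p = 0.0322 in limma), and Eif4g3 (-0.41, adjusted p = 0.0373). Of 16 elongation and nascent chain factors 2, 3 and 2 rose at 258.1, 516.2 and 1032.5 mg/kg and none fell, led at the highest dose by the histone chaperone Nap1l1 (0.65, adjusted p = 0.000531 in limma) with Eef2k, whose call was lost without array 1 or 3 of that dose. Of 78 ribosome assembly genes 1, 0 and 1 rose and none fell. That gene at 1032.5 mg/kg was Sbds, which helps to release a factor from the new large subunit (0.44, adjusted p = 0.00251 in limma), and the count was 2 or 3 without vehicle array 5 or 6. In a list of 30 genes that holds RNA polymerase I subunits and regulators of growth such as the mTOR pathway, 1, 3 and 3 rose and none fell. No RNA polymerase I subunit was called, but the list holds few of them, and most of its genes were not called. The genes called were Eif4ebp1, Tsc2, Ddit4 and Deptor, all of the mTOR pathway. At 1032.5 mg/kg they were Eif4ebp1, the mTOR target that blocks cap binding (0.77, adjusted p = 0.000729 in limma), and Deptor, an mTOR inhibitor (0.63, adjusted p = 0.00275 in limma), beside Ddit4, whose call was lost without array 1 of that dose. In the last 3 lists the rises at 258.1 mg/kg were 0 in each without array 3 of that dose. Without array 1 they were 0 for elongation and for assembly, and the elongation count was 1 without array 2 or any of vehicle arrays 1 to 5. The last list gave 2 rises and 1 fall there without vehicle array 6. At 516.2 mg/kg the elongation and last-list counts were 1 without array 1, and the assembly count was 1 without array 2 and 2 without vehicle array 6. Mrpl30, Mrps9, Eif2b2, Nap1l1, Sbds, Eif4ebp1 and Deptor passed with each array left out in turn at 1032.5 mg/kg and under all other settings tried.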

How the data were processed

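The authors deposited log2 signals, with 1 value for each probe set on each array, and RMA is the tool named by the submitters' processing notes. The software is not given in the sources used for this work. They were used as deposited. After 57 array controls were left out, 31042 probe sets were tested, of which 20826 name 1 gene. A gene was represented by its brightest such probe set. All 21 arrays entered a single limma 3.58.1 fit (R 4.3.3; a coefficient per group, no covariate), and Benjamini-Hochberg adjustment of p-values ran over all probe sets. P-values measure only the spread between these arrays. The scripts were tested on simulated data.

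Members, lists and settings were chosen with earlier results of these data known, and the level of 12 after seeing the levels. Named members were the 14 measured genes of a chosen set (Rpsa, Rplp0, Rps6, Rps3, Rps27l, Rpl3, Rpl5, Rpl11, Rpl13a, Rpl22, Rpl7l1, Rpl3l, Rpl39, Rpl41) and any member past the threshold; others were named after seeing their values. From each list the genes named are among the 4 called with the largest change at 1032.5 mg/kg, apart from Tsc2, which was called at 516.2 mg/kg. Of the 50 members, 48 matched RefSeq by Entrez identifier. Alternatives were other scalings, array weights, variance settings, the replicate number as a block, an RNA integrity covariate, another choice of probe set, fewer groups, and each array left out. Array number limits the precision.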

Additional observations from a re-analysis of the deposited data

Results flagged for a closer look

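Among the 29 results whose 6 vehicle arrays were examined for a value far from the rest, 3 had a vehicle array set apart, all in genes outside the ribosomal proteins. Eif3m, a subunit of initiation factor eIF3, read 10.83 on vehicle array 1, where the nearest other vehicle array read 11.13. Eif4ebp1 read 8.98 on the same array, nearest 9.23. Nap1l1 read 9.93 on vehicle array 6, nearest 9.49. Chance alone sets apart about 1 in 20 groups. None of the 14 named ribosomal protein genes, nor their mean, had such a vehicle array.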

How the results depend on the processing

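The ribosomal protein counts were recomputed for 13 results, and 132 of 141 values from another setting stayed at the main count, as did all 90 with an array left out, each 0. At 516.2 mg/kg 1 gene was higher when only those arrays and vehicle were fitted (Rpl26l1, adjusted p = 0.0438 in limma). With array weights 1 gene was lower at 1032.5 mg/kg (Rpl13a) and 3 passed the F test (Rpl28, Rps27l and Rps4y2). The probe set of Rpl28 averaged 4.507, below the arrays' lower quartile, which limits its calls here and below. The number rising over the dose step was 1 with cyclic loess and with the RNA integrity covariate (Rpl28), 2 with array medians subtracted and with each gene's probe sets averaged (Rpl28 and Rps4y2), and 1 with the replicate number as a block and with dosed arrays alone (Rps4y2). Same-numbered arrays did not deviate together (median r 0.01, 13 of 45 pairs over 0.1, against 37 of 135 for other numbers), so the block rests on numbers alone, and the paired fit called 0 members at every dose, as the fit without it. Added after the data were seen were the mean over bright members and the alternatives for the other lists. Of those, the count of mitochondrial ribosomal protein genes higher at 258.1 mg/kg, otherwise 0, was 2 with cyclic loess and 1 with array medians subtracted, the replicate block or averaged probe sets. Subtracting array medians moved the median of all genes at 516.2 mg/kg from 0.0 to 0.05 and that of bright members from 0.08 to 0.13. The causes were not tested. The count of 15 mitochondrial ribosomal protein genes higher at 516.2 mg/kg was 4 with cyclic loess, 9 with the integrity covariate and 8 with the compared groups alone.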
